A study of Mus musculus with 11 samples.

Results

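Rbpj-only sites at gene ends are the Rbpj peaks of a mouse T-cell leukaemia line that lay beside a protein-coding gene's start or end and overlapped no called peak of the other factors precipitated. They numbered 7995 of the 20993 Rbpj peaks. A peak was a member when its centre lay within 1 kb of either end of a RefSeq gene span on mm10 and it touched no peak of tagged Zmiz1 or of ICN1, the intracellular and active form of Notch1. A further condition was that no Polycomb-like histone segment, defined below, touched it. The members were thus chosen by measured values, namely the calls of the Rbpj, Zmiz1, ICN1 and Polycomb-like lists, and these calls are given as a description. Of the Rbpj peaks 9298 stood at a gene end. Of those, 839 touched a peak of another factor, 791 of them a peak of HA-tagged Zmiz1, and a further 464 touched a Polycomb-like segment. The members made up 86.0% of the gene-end peaks (85.3 to 86.7) and 38.1% of all Rbpj peaks (37.4 to 38.7), with exact 95% intervals that cover counting error only.

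All libraries came from the T-lymphoblastic line 8946, transduced by retrovirus with a tagged Zmiz1 and an activated Notch1 and sorted for both markers, GFP and NGFR. The Rbpj, Flag-Zmiz1, H3K4me1, H3K4me3, H3K27me3 and H3K27ac libraries and an ICN1 library came from the line Flag-Zmiz1/L1601PDP. The HA-Zmiz1 library and the other ICN1 library came from the line HA-Zmiz1/DEGFDLNRDP, and each line had its own input. Every cell studied therefore carried both forced transgenes, and no cells without them were used here. The Zmiz1 and Rbpj calls set side by side come from different lines wherever HA-Zmiz1 is used, so the line and the factor cannot be told apart. Factor chromatin was fixed with DSG and formaldehyde, and histone chromatin with formaldehyde alone.

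Rbpj, also called CSL, is the DNA-binding protein of the Notch pathway. Without Notch it can hold corepressors at its sites, and cleaved Notch joins it there with a Mastermind protein to switch on targets. Zmiz1 is a PIAS-like coactivator that works with Notch1 in T-cell leukaemia. H3K4me3 is the mark of active and poised gene starts, H3K4me1 is typical of enhancers, acetylation of H3K27 goes with active elements, and trimethylation of H3K27 with silencing by Polycomb.

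The sequences under the strongest members are shown because the letters that Rbpj recognises were most frequent there. Each window holds 101 bases centred on the summit, read from the RefSeq promoter table on GRCm38.p6, the assembly of mm10, and printed along the gene's own strand. Capitals mark TGGGAA, the core of the Rbpj recognition sequence, or TTCCCA, its reverse complement. The first 5 windows are among the 12 strongest that lay outside gene bodies, and each holds the longer Rbpj match CGTGGGAA on either strand.
Rpl23, chr11:97782473-97782573, minus strand: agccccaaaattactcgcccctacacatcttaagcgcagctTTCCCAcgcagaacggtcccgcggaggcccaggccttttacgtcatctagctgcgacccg
Prc1, chr7:80294268-80294368, plus strand: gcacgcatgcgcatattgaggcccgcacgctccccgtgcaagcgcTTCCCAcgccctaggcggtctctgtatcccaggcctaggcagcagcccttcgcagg
Atp5k, chr5:108434428-108434528, minus strand: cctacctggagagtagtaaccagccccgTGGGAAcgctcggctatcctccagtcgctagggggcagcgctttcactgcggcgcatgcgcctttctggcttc
Zc3h15, chr2:83644337-83644437, plus strand: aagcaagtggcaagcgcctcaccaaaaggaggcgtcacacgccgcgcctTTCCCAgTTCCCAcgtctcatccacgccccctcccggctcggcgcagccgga
Mterf2, chr10:85128141-85128241, minus strand: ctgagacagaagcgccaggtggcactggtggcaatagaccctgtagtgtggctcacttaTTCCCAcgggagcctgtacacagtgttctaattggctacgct
Not every strong member held the core. Both windows that follow are from the same 12, of which 8 held it, and have no capitals.
Mtln, chr2:127792507-127792607, minus strand: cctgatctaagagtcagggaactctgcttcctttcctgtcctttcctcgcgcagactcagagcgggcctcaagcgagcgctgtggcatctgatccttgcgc
Fignl1, chr11:11809012-11809112, minus strand: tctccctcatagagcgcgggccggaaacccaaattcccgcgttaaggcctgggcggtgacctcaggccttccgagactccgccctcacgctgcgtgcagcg
The next windows are shown because Rbpj and Zfp143, a zinc finger protein of housekeeping gene starts, have recognition sequences that can share letters. Here capitals mark the Zfp143 letters searched, ACTACA, any 2 bases, then TCCC, or the same on the other strand. Both windows also hold the Rbpj core, apart from the Zfp143 letters at Llgl1 and overlapping them at Zfp146.
Llgl1, chr11:60699536-60699636, plus strand: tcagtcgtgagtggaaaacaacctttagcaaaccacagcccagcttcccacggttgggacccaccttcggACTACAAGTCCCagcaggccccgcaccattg
Zfp146, chr7:30169853-30169953, minus strand: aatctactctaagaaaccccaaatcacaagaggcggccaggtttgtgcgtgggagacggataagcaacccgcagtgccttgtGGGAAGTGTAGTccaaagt

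Rbpj had 19048270 filtered tags, the other factor libraries had 13450671 to 15429394, and the inputs 26791332 and 36404168. The fragment length fitted by the peak caller was 63 bases for Rbpj at a tag length of 52 bases, so widths and pileups given here follow the reads closely. The labelled cell type was set beside its marks: all 9 T-cell genes checked, Cd3e and Zap70 among them, had H3K4me3 over an end, against 1 of 8 B-cell and 1 of 8 myeloid genes. Labels and deposited names of the H3K27 libraries disagreed. Segments of the library labelled H3K27ac lay over the ends of 103 of 122 developmental regulators, such as the Hox genes, and of 1 of 81 cytosolic ribosomal protein genes. Segments of the library labelled H3K27me3 lay over 9 of those 122 regulators and 74 of those 81 ribosomal protein genes. By these genes the library labelled H3K27ac is called Polycomb-like here and the library labelled H3K27me3 acetylation-like, and each statement on either rests on that reading. No target had a replicate library within a line, so values are set side by side with no test.

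Rbpj at the members was mostly modest, with a long upper tail. The fold over input ran from 3.09 to 44.0, with a median of 6.62 (6.57 to 6.64) and quartiles at 5.41 and 8.31. The −log10 p ran from 5.01 to 139 with a median of 11.2, and the pileup at the summit from 6 to 99 reads with a median of 15 reads. Peaks were narrow, at 63 to 794 bp with a median of 141 bp. Rbpj gene-end peaks that touched HA-Zmiz1 and no ICN1, 760 in number, had a median fold of 7.78 (7.49 to 8.15) and a median width of 219.5 bp. Rbpj-only peaks farther than 1 kb from any gene end, inside H3K4me1 and outside Polycomb-like segments, 6097 in number, had a median fold of 6.12 (6.07 to 6.22) and a median width of 107 bp. The median over all Rbpj peaks was 6.47 (6.44 to 6.51). The members thus sat between both of these sets in fold and in width.

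Of the 15 members strongest by −log10 p, 14 lay in an H3K4me3 segment, 14 in an acetylation-like segment and 6 in an H3K4me1 segment. The first was Rpl23, a large-subunit ribosomal protein gene, whose peak at chr11:97782355-97782752 had a fold of 38.9 and a pileup of 99 reads. Its H3K4me3 segment had a fold of 21.1 over input and its acetylation-like segment a fold of 5.79. The highest fold, 44.0, stood at chr7:80294143-80294500, at the start of Prc1, which bundles spindle microtubules in late mitosis, and the end of the neighbouring Rccd1. There H3K4me3 had a fold of 14.1 and acetylation-like signal a fold of 4.38.

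The other genes of the 15 had varied functions. Uqcrc2, a core subunit of respiratory complex III, had an Rbpj fold of 36.8. Atp5k, a subunit of ATP synthase, had a fold of 34.7 at chr5:108434355-108434605, and Timm44, of the mitochondrial protein import motor, had 31.9. Rpl10a, another large-subunit ribosomal protein gene, had an Rbpj fold of 31.1. Other members of the group were Zfp974, a zinc finger gene, with 39.1, and Mtln, a small protein of mitochondria, with 33.9. Divergent or abutting genes shared several of these peaks. Chd1l, a chromatin remodeler of the DNA damage response, and Fmo5 shared a peak of fold 38.1, and Ints13, of the Integrator complex, shared a peak of fold 35.7 with Fgfr1op2. Rgl2, an exchange factor for Ral, and Tapbp, which loads peptides on MHC class I, shared a peak of fold 29.6. Pigk, which attaches GPI anchors, had a fold of 32.3, Tmx3, an oxidoreductase of the endoplasmic reticulum, 27.6, and Fignl1, a recombination factor, 28.8.

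The exception in histone marks was the peak at chr11:106007944-106008111, at the start of Kcnh6, a potassium channel gene, and the end of Ace3. Its Rbpj fold was 35.1 and its pileup 61 reads, and no H3K4me3, H3K4me1 or acetylation-like segment touched it. The next strongest members without H3K4me3 were far weaker: Eef1b2 had a fold of 9.40, Slc45a3 12.4, the gene 4930402F06Rik 11.2 and Mnt, a Max-binding repressor, 10.8. These 5 were picked after their values were seen.

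**Figure D1:**
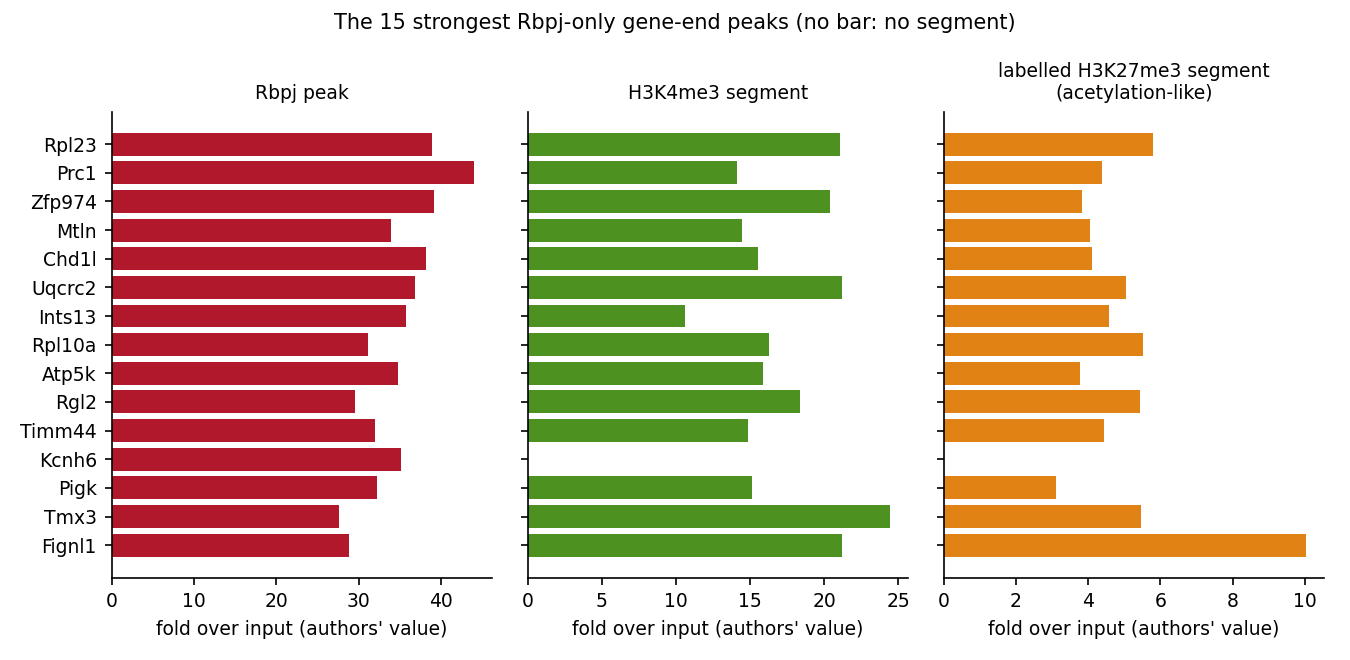
Fold over input, as the authors' tables give it, for the 15 strongest Rbpj-only gene-end peaks (rows, in order of −log10 p and named by the first gene at the peak), for the Rbpj peak, the H3K4me3 segment and the segment of the library labelled H3K27me3. Rbpj folds run from 27.6 to 44.0, and Kcnh6 has no bar in either histone panel.

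Gene-end members lay almost throughout in chromatin marked as active gene starts. H3K4me3 segments covered 98.3% of them (98.0 to 98.5) and acetylation-like segments 96.9% (96.5 to 97.3), against 87.3% and 86.2% of all Rbpj peaks. H3K4me1 covered 31.2% of the members (30.2 to 32.2), against 57.8% of all Rbpj peaks. Only 70 of the 7995 members, 0.876%, lay in no segment of these marks. Members with H3K4me3 and acetylation-like signal but no H3K4me1 made up 67.0%, against 34.6% of all Rbpj peaks. A gene end within 1 kb was part of the rule, and most H3K4me3 lies at gene starts, so these shares describe the members' surroundings.

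The gene-end peaks with HA-Zmiz1 were close to the members in H3K4me3 and differed in H3K4me1. Their H3K4me3 share was 99.3%, their acetylation-like share 99.3% and their H3K4me1 share 39.2% (35.7 to 42.8), against 31.2% of the members. These peaks were also wider, with a median of 219.5 bp against 141 bp, and 1 bp of overlap was enough. The part of peak width in the H3K4me1 difference was not tested. Among distal Rbpj-only peaks, which the comparison required to lie in H3K4me1, H3K4me3 covered 81.9% and acetylation-like segments 87.2%. The H3K4me3 segments over the members were high: their median fold was 15.2 with a median width of 3.6 kb. At the distal peaks the H3K4me3 median was 4.84 with a width of 2.6 kb, and over all H3K4me3 segments of the library it was 4.60. H3K4me1, where it was present, was low over the members, with a median fold of 2.27, against 2.66 at the peaks with HA-Zmiz1 and 3.10 at the distal peaks. The acetylation-like median was 4.47 over the members, 4.86 at the peaks with HA-Zmiz1 and 4.08 at the distal peaks.

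**Figure D2:**
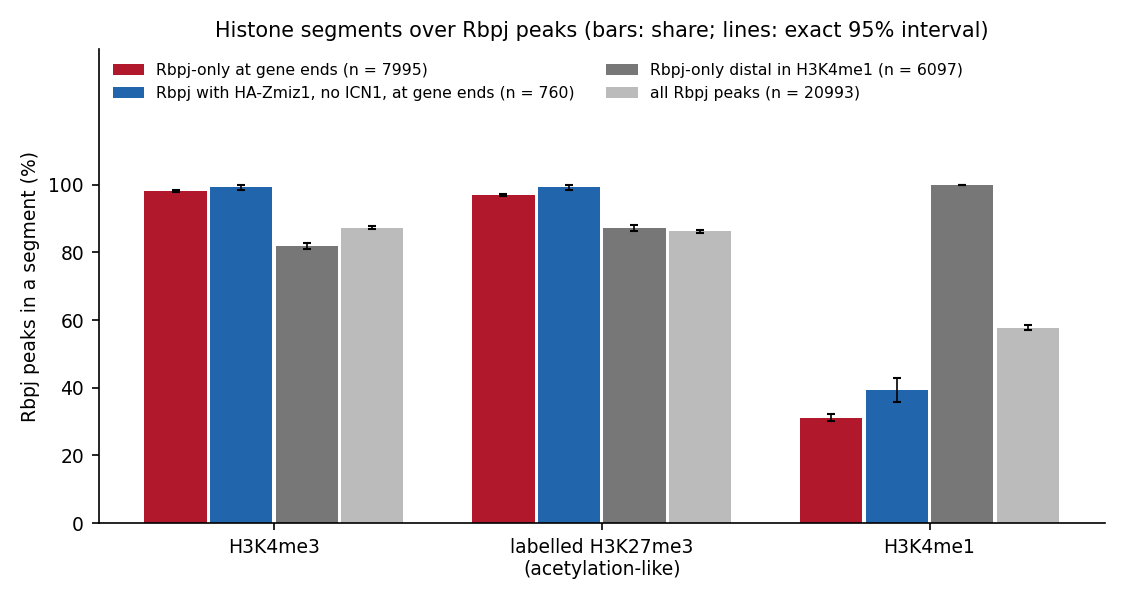
Share of Rbpj peaks (vertical axis, percent) touched by a segment of H3K4me3, of the library labelled H3K27me3 and of H3K4me1, for the Rbpj-only gene-end peaks, the gene-end peaks with HA-Zmiz1, the distal Rbpj-only peaks chosen for H3K4me1, and all Rbpj peaks, which include the other sets. Bars are shares, lines exact 95% intervals, and the members stand at 98.3%, 96.9% and 31.2%.

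Nearly all members with a strand to read stood at a gene's start. By strand, 6610 members could be placed. A member counted as at a start if any gene of known strand started within 1 kb. It counted as beside an end only if every gene there ended. Of the 6610, 6404 lay within 1 kb of a start, or 96.9% (96.4 to 97.3), and 206 lay beside an end only. Of the 6404, 886 stood between or over starts of genes on both strands (13.8%). Genes without a strand could not be counted there, so 886 may be low. Their summits centred on the start: the median offset was 1 bp inside the gene, with quartiles 95 bp before and 177 bp after it. Within 100 bp of the start lay 2980 summits, or 46.5%, and within 250 bp 4360, or 68.1%. The bin of 50 bp just before the start held 15.3% of the summits and the bin just after it 13.9%. Summits were fewer 150 to 200 bp inside the gene, at 2.15%, and more frequent again 250 to 300 bp inside, at 2.98%. The 568 gene-end peaks with HA-Zmiz1 had a median offset 18 bp before the start.

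**Figure D3:**
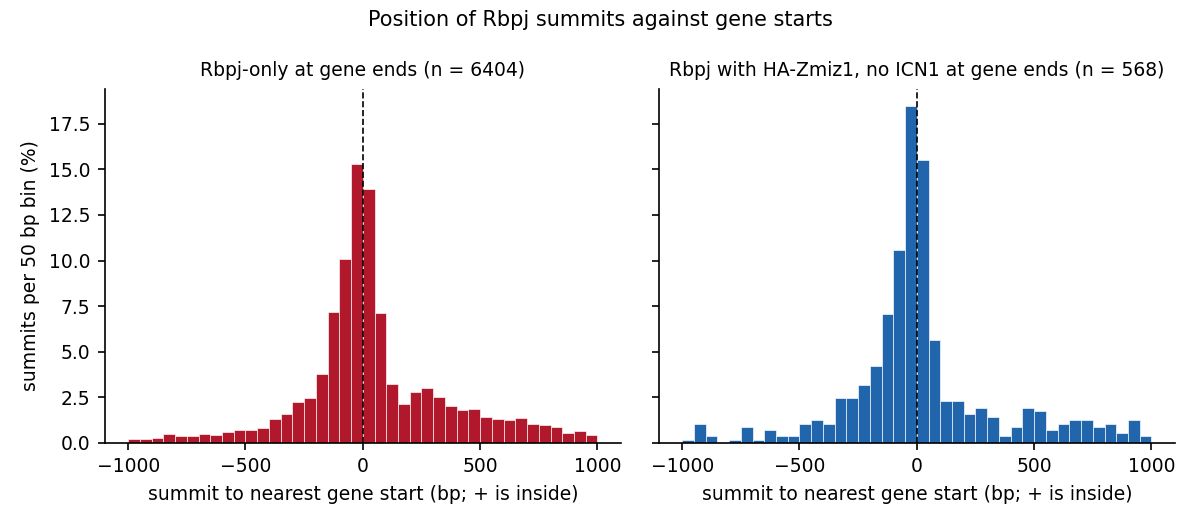
Share of summits per bin of 50 bp (vertical axis, percent) by distance to the nearest gene start in bp (horizontal axis, positive inside the gene), for 6404 Rbpj-only peaks on the left and 568 Rbpj peaks with HA-Zmiz1 on the right. Members are highest in the bins on either side of the start, at 15.3% and 13.9%, and have a lower shoulder inside the gene, at 2.98% in the bin from 250 to 300 bp.

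The 206 members beside a gene's last base carried other marks than those at starts. H3K4me3 covered 66.5% of them (59.6 to 72.9), against 99.4% of the members at starts, and H3K4me1 covered 70.9% (64.2 to 77.0), against 29.6%. Acetylation-like segments covered 68.0%, against 98.1%. Their median Rbpj fold was 6.10, against 6.62 at starts.

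The edge of the rule divided similar peaks. The 3 members nearest inside the 1 kb limit were at Ect2, with a centre 997 bp from the gene end and a fold of 5.84, and at Aurkaip1 and Osbpl3, both at 996 bp, with folds of 4.15 and 6.28. The 3 peaks nearest outside it were at Wars2, at 1001 bp with a fold of 7.18, and at Sav1 and Trib1, both at 1002 bp, with folds of 7.65 and 6.36. Overlap with HA-Zmiz1 was an equally sharp limit. The member at Bcl2l11, which encodes a pro-apoptotic Bcl-2 family protein, lay 2 bp from an HA-Zmiz1 peak, and those at Marcks and Smndc1 lay 4 bp away. In all, 124 members had an HA-Zmiz1 peak within 200 bp and 454, or 5.68%, within 1 kb, while the median gap was 95.01 kb. ICN1 peaks of the HA line or the Flag line lay within 1 kb of 32 members.

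Motifs were read at the 3013 members whose summit window lay inside a RefSeq promoter, from 250 bases before the start to 50 after it. For each motif the share of windows with a match on either strand is given, beside the share over every window of the same length in all 21263 promoters. The Rbpj core TGGGAA was in 11.7% of the members' windows (10.6 to 12.95), against 8.76% of all promoter windows. Over whole promoters the order was the other way, with the core in 22.6% of promoters that a member touched, against 24.5% of all promoters. In the 294 windows of gene-end peaks with HA-Zmiz1 it was 11.6% (8.14 to 15.8). The longer match CGTGGGAA, which contains the core, was in 1.23% (0.866 to 1.69), against 0.303% of all windows, and in 0 of the 294 windows with HA-Zmiz1, where the exact upper limit is 1.25%. The members' windows were richer in G and C, at a mean of 66.0% ± 8.27 (SD over 3013 windows), against 56.2% ± 11.6 over promoters. The part of base composition in these shares was not tested.

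The core went with Rbpj strength, and most members did not hold it. All members were ranked by −log10 p and divided into 10 strength bins of 799 or 800, bin 10 being the strongest. The core was in 112 of the 373 windows of bin 10, or 30.0% (25.4 to 35.0). In bins 1 to 7 its share ran from 5.46% to 9.05%, around the 8.76% of all promoter windows, and in bins 8 and 9 it was 11.2% and 14.6%. Over bins 1 to 9 together it was 9.17% (8.09 to 10.3). In the 50 strongest windows it was 46.0% (31.8 to 60.7). In bin 10, 73 of 127 core matches, or 57.5%, lay within 20 bp of the summit, against 123 of 253, or 48.6%, in bins 1 to 9. Windows reach only 50 bp to each side, so a sizeable part of evenly spread matches would also lie within 20 bp. The Rpl23, Prc1, Atp5k, Zc3h15 and Mterf2 windows printed above are of this kind. Bin 10 had a mean GC content of 67.5%, against 65.1% in bin 1, and its H3K4me1 share was 31.3%, against 34.5%.

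Zfp143 matches were in 3.55% of the members' windows (2.92 to 4.28), against 1.07% of all promoter windows, and in 2.04% of the windows with HA-Zmiz1. Of the 354 windows with the Rbpj core, 51 also held a Zfp143 match, and in 39 the matches shared letters. Without core matches that overlap a Zfp143 match, the core share was 29.0% in bin 10 (24.4 to 33.8) and 4.20% in bin 1 (2.03 to 7.59). The Zfp143 share itself had no such order by strength.

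Recognition letters of general promoter factors were frequent at the members. The Sp1 box GGGCGG was in 46.4% of the windows, against 24.6% of all promoter windows, and GCGCATGC, recognised by Nrf1, a regulator of mitochondrial genes, was in 4.55%, against 1.30%. The Ets sequence CCGGAAGT was in 5.77% (4.97 to 6.67), against 1.72%, and in 9.52% (6.42 to 13.5) of the windows with HA-Zmiz1. AAGATGGCG, read by Yy1, was in 1.66%, against 0.408%, TGACGTCA, the cyclic AMP response element, in 2.19%, against 0.855%, and CACGTG, the E-box, in 5.97%, against 2.87%. CCAAT, read by NF-Y, was in 16.9% of the members' windows, against 17.6%, and was in 8.85% in bin 10, against 18.9% in bin 1. TATAAA was in 0.863%, against 4.53%, and the Runx letters TGTGGTTT in 0.232%, against 0.522%. A match is a run of letters and does not show that a factor was bound.

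**Figure D4:**
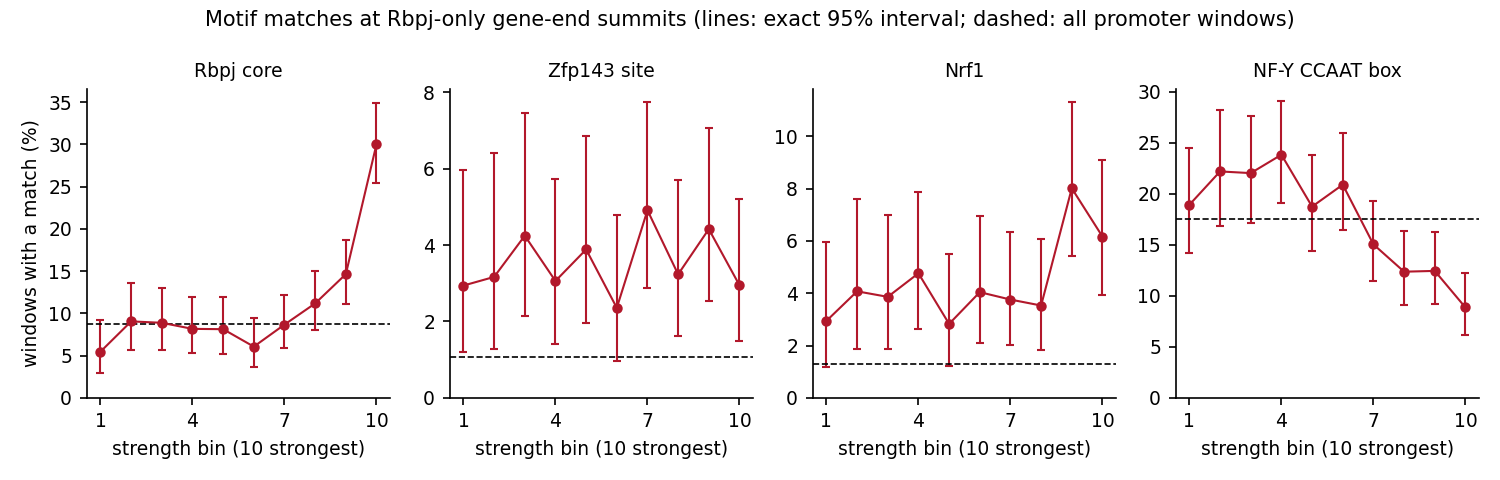
Share of summit windows with a match (vertical axis, percent) in each of 10 strength bins of the members by −log10 p (horizontal axis, 10 is the strongest), for the Rbpj core, Zfp143, Nrf1 and the CCAAT box. Lines are exact 95% intervals, the dashed line is the share of all promoter windows, and the Rbpj core stands at 30.0% in bin 10.

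The members fell at the ends of 6903 of the 21887 protein-coding genes, or 31.5%. Nearly all of these genes carried H3K4me3: 6755 of the 10192 genes with H3K4me3 over an end had a member (66.3%), against 148 of the 11695 without it (1.27%). Of the 6903 genes, 4787 had 1 member, 1652 had 2, 387 had 3, 67 had 4 and 10 had 5. Those 10 genes include Hnrnpa2b1 and Cbx3, which share a divergent start and encode an RNA-binding protein and a heterochromatin protein, Daxx, a histone H3.3 chaperone, and Zbtb14, a zinc finger gene.

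Gene lists of general cell functions had members at 58.8% to 86.2% of their genes in each of the 12 lists checked, all above the 31.5% of all genes. Among genes with H3K4me3 the same 12 lists had shares of 64.5% to 91.8%, of which 10 lay above the 66.3% of all such genes. Spliceosome components had a member at 56 of 65 genes, 55 of them among the 62 with H3K4me3. Sf3b1, a core protein of the U2 particle, had an Rbpj fold of 11.7, and Prpf4, of the U4/U6 particle, had 13.2. Translation initiation factors had a member at 46 of 56 genes, 45 of them among the 49 with H3K4me3. Eif4g1, the scaffold of the cap-binding complex, had a fold of 17.0, and Eif5b, which joins the ribosomal subunits, had 17.0.

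Cytosolic ribosomal protein genes had a member at 62 of 81, with Rpl23 and Rpl10a followed by Rpl39 at a fold of 24.3. Mitochondrial ribosomal protein genes had a member at 58 of 78 genes, all 58 among the 73 with H3K4me3, and Mrpl45 had a fold of 11.6 and Mrpl17 14.2. Proteasome subunit genes had a member at 37 of 48, Psmd5 with a fold of 14.0 and Psma1, of the catalytic core, with 10.8. Respiratory chain and ATP synthase genes had a member at 65 of 90, with Atp5o at a fold of 18.1 beside Uqcrc2 and Atp5k. DNA damage genes had a member at 35 of 43, among them Nbn, of the break-sensing complex, with a fold of 13.2, and Palb2, a recombination partner, with 10.9.

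Other lists lay nearer to the H3K4me3 background of 66.3%. RNA polymerase subunits had a member at 19 of 28 genes with H3K4me3, DNA replication genes at 27 of 40, aminoacyl-tRNA synthetases at 20 of 31, vacuolar protein sorting genes at 20 of 31 and cytosolic chaperonin subunits at 6 of 8. Krueppel-type zinc finger genes had a member at 147 of 242, or 60.7%. Among genes of the T lineage with H3K4me3, T-cell receptor and surface genes had a member at 13 of 25, or 52.0%, and T-lineage transcription factors at 15 of 25, or 60.0%. Of the 26 T-cell surface genes, 11 had a gene-end Rbpj peak with HA-Zmiz1 and no ICN1, against 846 of the 21887 protein-coding genes. The rule leaves such peaks out of the members. Zap70, a kinase of the T-cell receptor, had a member of fold 9.72, and Tcf7 and Bcl11b, factors of T-cell commitment, had members of fold 9.77 and 8.08. No B-cell or myeloid marker gene of 11 each had a member, but only 1 gene of each list had H3K4me3 over an end. Genes without H3K4me3 had a member in 1.27% of cases, so these counts add little. With a limit of 2 kb each list had 1 gene with a member. Without the rule on Polycomb-like segments the B-cell list had 1. Developmental regulators had a member at 4 of 122 and olfactory receptors at 4 of 1106. The rule left out Polycomb-like segments, which covered 103 of the 122 regulators, and without that condition 9 of the 122 had a peak of this kind. With a limit of 500 bp 1 had a member, and of the 19 regulators with H3K4me3 over an end 3 had a member.

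**Figure D5:**
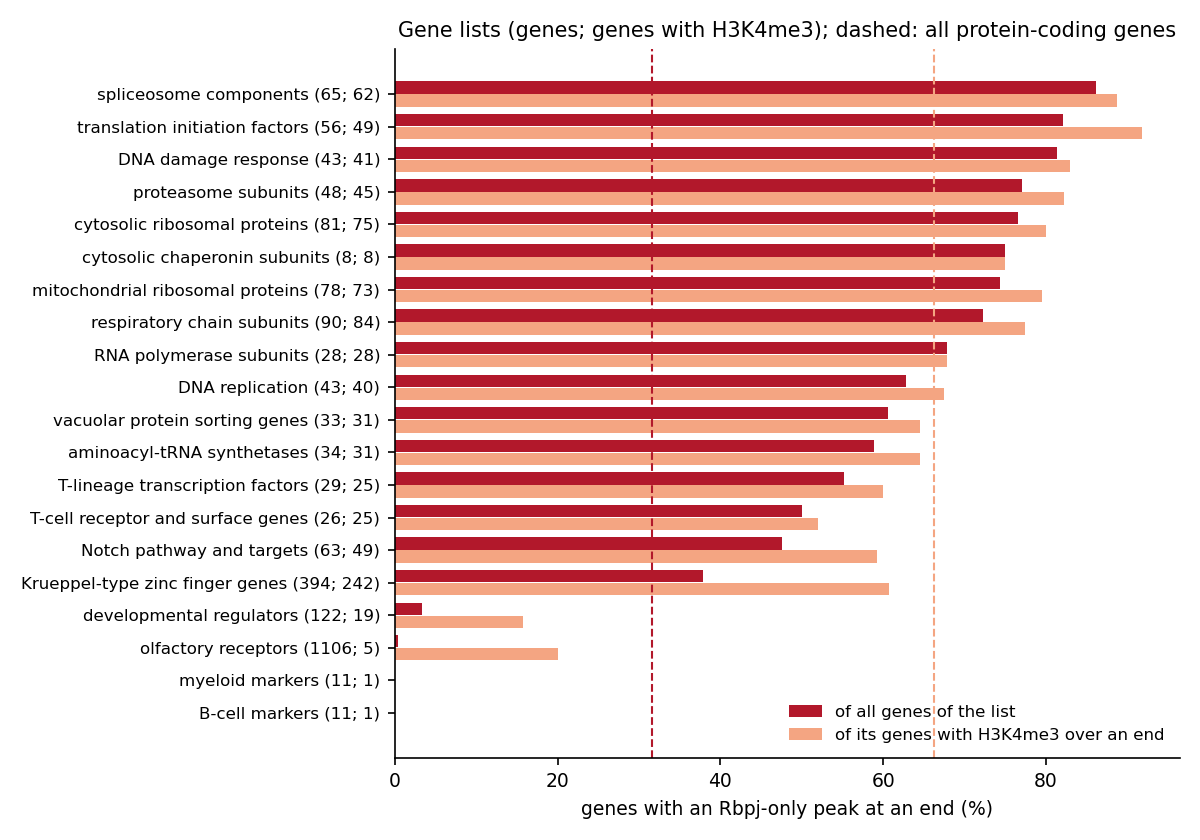
Share of genes with an Rbpj-only peak at an end (horizontal axis, percent) for 20 gene lists (rows), over all genes of a list in dark bars and over its genes with H3K4me3 in light bars, with both gene counts beside the name. Dashed lines mark the 31.5% of all protein-coding genes and the 66.3% of those with H3K4me3, and spliceosome genes stand highest over all genes, at 86.2%.

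Notch pathway genes had a member at 30 of 63, and at 29 of the 49 with H3K4me3 (59.2%, against 66.3% of all such genes). Among receptors, Notch2 had a member of fold 13.7 at chr3:98013313-98013488, and Notch3 one of fold 7.78, whereas Notch4 had a peak of fold 6.84 at its end. Among the machinery that cuts or carries the receptor, Adam10, the protease that sheds it, had a fold of 10.3, Psen2, a catalytic subunit of gamma-secretase, had 5.83, and Mfng, a glycosyltransferase that tunes ligand choice, had 8.58. Itch, a ubiquitin ligase, had 9.29, and Fbxw7, which marks active Notch for degradation, had 5.21.

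Members also lay at genes of some of Rbpj's own partners. Spen, a corepressor that binds Rbpj, had a fold of 12.8 and was the strongest of the list by −log10 p, at 31.1. The corepressor Ctbp1 had 3 members with folds of 7.76, 7.51 and 3.89, and the deacetylases Hdac3, Hdac1 and Hdac2 had 8.15, 6.23 and 4.67. On the activating side Ep300, an acetyltransferase, had 2 members of fold 10.3 and 9.73, and the acetyltransferases Kat2b and Kat2a had 8.06 and 5.81. Maml1, a Mastermind coactivator, had 7.82. Of the PIAS family relatives of Zmiz1, Pias2, Pias1, Pias4 and Zmiz2 had members, with folds of 10.3, 5.50, 4.11 and 6.40, and Pias3 had none. Rbpj itself, Ncor1, Ctbp2, Maml2 and Maml3 had no member either. Zmiz1 itself had a peak of fold 6.68 and 10 reads at its end, in no H3K4me3 segment.

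Known target genes of Notch in T cells differed in this. Myc, a driver of T-cell leukaemia, had 2 members with folds of 8.77 and 6.36, the first at chr15:61985399-61985656, and Il7r, a cytokine receptor, had a member of fold 6.47. Ptcra and Il2ra had no Rbpj peak at an end. Other genes of the list, not counted here as T-cell targets, had members too. These were Hes7 and Hes6, of the Hes family of repressors, with folds of 11.7 and 8.34, and Dtx2, with 4.20. Of the 33 Notch-list genes without a member, 9 had another Rbpj peak at an end, Notch1 and Igf1r among them, and 24 had none. Polycomb-like segments lay over an end of 20 of those 33 genes, against 18.9% of all protein-coding genes, with or without a member. The rule keeps peaks in such segments out of the members, so it can itself raise the count among genes without one. Without that condition 34 of the 63 genes had a peak of this kind, against 30 with it. Hes1, Hes5, Hey1, Dtx1 and Nrarp were among the genes that had no Rbpj peak at an end and a Polycomb-like segment over one. Enhancers far from a gene are not covered by these counts.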

How the data were processed

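The authors deposited MACS2 peak tables for the 5 factor libraries and SICER segment tables for the 4 histone libraries. The factor tables give each peak's pileup signal at the summit, its −log10 p and its fold over input, per the file headers, which also name a p limit of 1e-05 and 1 tag kept per position. The segment tables give read counts of the library and of its input, a p-value and a fold (ratio) per segment, as the authors deposited them, and every segment had a false discovery rate under 0.001. Bowtie 0.12.7 alignment, MACS2 2.0.10, SICER 1.1 and mm10 are named in the submitters' processing notes. Header names show that the HA-line factor tables come from pooled reads.

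The members, the 20 gene lists and the 12 motifs were chosen with earlier results of these data known. Gene ends, strands and promoter sequence came from NCBI RefSeq on GRCm38.p6, the assembly of mm10. The table of gene spans held 21887 protein-coding genes, of which 17492 had a promoter sequence that gave their strand. A segment or factor peak counted as shared with at least 1 bp of overlap. Promoter sequence ran from 250 bases before to 50 bases after a start, so motifs were read in the 3013 windows of 101 bases around a member's summit that lay inside it. Each motif was searched on both strands. Intervals are exact Clopper-Pearson intervals at 95%, which cover counting error only. Every target had 1 library in a line, so no test was made. Named genes followed a fixed rule: the 15 highest by −log10 p, the 5 highest by fold, the 3 on each side of the distance limit, the 3 nearest an HA-Zmiz1 peak, up to 4 per list, and Notch-list genes. The 5 strongest members without H3K4me3 were chosen after their values were seen. The scripts were tested on simulated data and run in Python 3.11.15 with pandas 2.3.3, scipy 1.17.1 and matplotlib 3.10.9. Alternatives covered the distance, the overlap, the peak limits, the segment threshold and the window length.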

Additional observations from a re-analysis of the deposited data

How the results depend on the processing

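The limit on high input removed no member and is not counted here. Of the values that answer a comparison 70 kept within their interval or within 1.5 times the count and 28 moved, and of the gene-list counts 126 stayed and 14 moved. With a limit of 500 bp, 98.85% of members lay in H3K4me3, 29.12% in H3K4me1 and 97.53% in acetylation-like segments, with a median fold of 6.67. With 2 kb the shares were 97.08%, 34.07% and 96%. With Rbpj peaks at a −log10 p of 10 or more there were 4743 members, with shares of 98.9%, 29.77% and 97.68%, a median fold of 7.859 and the Rbpj core in 13.77% of windows, 37.26% in bin 10 and 10.95% in the others. Without the rule on Polycomb-like segments H3K4me1 was 32.51% and acetylation-like 94.34%. With the upper 50% of segments by fold the shares were 96.97% for H3K4me3, 12.67% for H3K4me1 and 87.78% for acetylation-like. With at least 50% of the peak inside a segment H3K4me1 was 23.5% and acetylation-like 96.32%. The H3K4me1 share of the members was thus the histone value most moved, to 12.67% in place of 31.2%. Windows of 51 bases, chosen after seeing the data, held the core in 6.772%, 19.63% in bin 10 and 5.014% in the others, Zfp143 in 1.349%, Ets in 2.95% and the Sp1 box in 26.75%; a shorter window holds fewer matches by construction. No paired analysis was possible because each target had 1 library in a line.

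Limits: there were no replicate libraries within a line and no test, and intervals take neighbouring peaks as independent, which they are not. Absence from a Zmiz1 or ICN1 list does not show that the factor was absent. The lists hold 581 peaks for Flag-Zmiz1, and 414 in the HA line and 82 in the Flag line for ICN1. The HA-Zmiz1 list, which did most of the excluding, holds 4984 peaks from 15322650 tags, against 20993 from 19048270 tags for Rbpj. It also comes from another line than Rbpj. Motifs were read only within RefSeq promoters, at 3013 of 7995 members.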

Other observations

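Of the 274 X-linked genes with H3K4me3 over an end 157 had a member, or 57.3% (51.2 to 63.2), against 6597 of 9915 autosomal genes, or 66.5% (65.6 to 67.5). Single autosomes ran from 63.4% on chromosome 2 (60.1 to 66.7) to 72.2% on chromosome 18 (66.0 to 77.9). The pooled interval does not show this spread, and the difference was not tested.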
